A study of Mus musculus with 48 samples.

Results

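*Agrp*, *Npy*, *Pomc* and *Cartpt* encode 4 peptides of the hypothalamic feeding circuits, and they are the 4 genes, of 16510 in the deposited count table, that are described here. They were taken by name. The table came from single-cell RNA sequencing of the mouse hypothalamus at E18.5, late in gestation, and held 14121 cells in 48 libraries. Control embryos (n = 6, 22 libraries) carried 2 floxed *Eed* alleles and no Cre (Eed fl/fl), and Eed-cKO embryos (n = 9, 26 libraries) carried the same alleles and Sox1-Cre (Eed fl/fl; Sox1-Cre/+), on a mixed B6:129S1 background. Sox1-Cre acts in the whole central nervous system from the neural plate onwards, so the mutation was not limited to the hypothalamus or to a cell type within it, and all embryos carried the floxed alleles. Eed is a core subunit of the Polycomb Repressive Complex 2 (PRC2), the complex that places H3K27me3 on chromatin.

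In the arcuate nucleus, AgRP and NPY are made by the same neurons, which are GABAergic and drive food intake. POMC is the precursor of α-MSH, which acts on melanocortin receptors to reduce food intake, and AgRP blocks these receptors. *Cartpt* encodes the CART peptides, which are made with POMC in the arcuate nucleus and with melanin-concentrating hormone, the product of *Pmch*, in the lateral hypothalamus. *Npy* and *Cartpt* are also expressed by other neurons in and outside the arcuate nucleus, and *Pomc* is strongly expressed by corticotrophs and melanotrophs of the pituitary, which lies directly below the hypothalamus. *Agrp* spans chr8:105566698-105637393 on the minus strand of GRCm38 (mm10), *Npy* chr6:49822710-49829507 on the plus strand, *Pomc* chr12:3954951-3960642 on the plus strand and *Cartpt* chr13:99898489-99901091 on the minus strand. An annotated exon of *Agrp* overlaps an exon of *Ctcf*, and whether the counting used strand is not given in the sources used here, so low *Agrp* counts are less certain than those of the other 3 genes, which overlap no annotated gene.

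PRC2 is known to act mostly at promoters rich in CpG, the dinucleotide on which DNA methylation is also placed, and the promoters are shown for that reason. Each is the 250 bases before the RefSeq start (GRCm38.p6), read 5′ to 3′ on the strand of the gene, with CpG in capitals. The first lies at chr6:49822460-49822709 on the plus strand, the second at chr12:3954695-3954944 on the plus strand and the last at chr13:99900684-99900933 on the minus strand. The RefSeq start of *Cartpt* lies inside the span given above, which comes from another annotation with a start further upstream, so this window overlaps that span.
*Npy*: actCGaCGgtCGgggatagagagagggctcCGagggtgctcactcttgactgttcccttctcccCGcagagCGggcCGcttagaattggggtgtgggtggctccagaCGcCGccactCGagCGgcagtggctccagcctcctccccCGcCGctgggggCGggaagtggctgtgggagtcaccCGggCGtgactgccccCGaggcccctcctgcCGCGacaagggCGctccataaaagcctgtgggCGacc
*Pomc*: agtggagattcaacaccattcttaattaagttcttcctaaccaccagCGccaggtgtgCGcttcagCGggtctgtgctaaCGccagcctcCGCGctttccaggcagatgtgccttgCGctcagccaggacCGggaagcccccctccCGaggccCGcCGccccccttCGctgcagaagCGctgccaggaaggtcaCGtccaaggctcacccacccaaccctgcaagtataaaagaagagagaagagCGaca
*Cartpt*: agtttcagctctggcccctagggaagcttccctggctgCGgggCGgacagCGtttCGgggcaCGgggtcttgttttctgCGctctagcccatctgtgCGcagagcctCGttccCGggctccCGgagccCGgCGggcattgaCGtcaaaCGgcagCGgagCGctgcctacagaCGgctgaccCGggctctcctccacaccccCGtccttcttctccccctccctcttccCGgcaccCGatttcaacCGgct
The 3 windows held 21, 15 and 22 CpG, for *Npy*, *Pomc* and *Cartpt*, against a median of 6 over 32851 promoters. Of all promoters, 83.7% held fewer CpG than that of *Npy*, 72.7% fewer than that of *Pomc* and 85.2% fewer than that of *Cartpt*. The letters TATAAA, searched on both strands, occurred in that of *Pomc*, 25 bases before the start, and in 12.4% of all promoters. The letters TGACGTCA, the palindromic cyclic AMP response element, occurred in that of *Cartpt*, 112 bases before the start, and in 1.55% of all promoters.

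Neural cells were all cells that held fewer than 3 markers of each list of endothelial, pericyte or smooth muscle, leptomeningeal and microglial genes. They numbered 6841 in Control (1015 to 1598 per embryo) and 6299 in Eed-cKO (206 to 1043 per embryo), and 86.1% of them held at least 3 of 9 neuron markers. The median cell held 4762 UMIs, the tags that count single RNA molecules, in Control and 4368 in Eed-cKO. The library names were read as giving 4 Control and 6 Eed-cKO litters, none with both genotypes, so genotype and litter cannot be told apart. The largest library, of Control embryo 5, held 1207 cells against at most 465 in any other and was shallow (median 2919 UMIs per cell), and *Agrp*, *Npy* and *Pomc* were more frequent in it than in the rest of its embryo (2.85% against 1.13%, 6.92% against 3.62% and 4.24% against 2.26%). *Eed* was at 28.6 to 32.9 CPM (UMIs scaled to a common embryo total) in Control and 19.4 to 27.6 in Eed-cKO, but the counted 3′ ends lie outside the deleted exons and do not check the deletion. Between libraries, 203 cells shared 101 barcodes. Embryos of a litter share a dam, and p-values measure the spread between these embryos.

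*Cartpt* had the smallest adjusted p of the 4 genes for a difference in level between the genotypes. Its level, the UMIs summed over the neural cells of an embryo and scaled to CPM with TMM, was lowest at 17.1, with a median of 22.7 and a highest value of 37.6, in Control, and 32.7, 49.2 and 73.6 in Eed-cKO. Thus 7 of 9 Eed-cKO embryos lay above every Control embryo. The difference was 1.10 ± 0.18 (SE) on the log2 scale (means 24.2 ± 7.26 and 52.1 ± 13.9 CPM, SD, edgeR adjusted p = 9.47e-05 over 12512 genes). The same test called 13.7% of all genes higher and 10.9% lower in Eed-cKO, so a call by itself was common. Of the genes called, 55.7% were higher, and 67.3% with scaling to library size alone, under which *Cartpt* differed by 1.14.

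*Pomc* was also higher in Eed-cKO, but this difference rested on few cells. The level was 10.9, 14.2 and 38.1 CPM (lowest, median and highest) in Control and 8.75, 40.1 and 487 in Eed-cKO, where 5 of 9 embryos lay above all Control embryos and 1 lay below them. The log2 difference was 2.31 ± 0.64 (edgeR adjusted p = 0.0110). It was 1.27 (adjusted p = 0.0254) without Eed-cKO embryo 1 and 0.90 ± 0.34 (adjusted p = 0.0604) without the cells that held at least 2 pituitary markers, a setting that was added with the data in view.

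*Agrp* was lower in Eed-cKO at the edge of the threshold. The level was 13.9, 25.4 and 40.3 CPM in Control and 0, 5.58 and 29.3 in Eed-cKO. In Eed-cKO, 5 of 9 embryos lay below all Control embryos, while the other 4 overlapped with them, and embryo 9, with the fewest cells, held no *Agrp* UMI. The log2 difference was −1.27 ± 0.46 (edgeR adjusted p = 0.0475). It was −1.04 (adjusted p = 0.112) without the largest library, and the call was lost in 9 of 15 fits that left out an embryo. In DESeq2 the difference was −1.32 (adjusted p = 0.186).

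*Npy* did not pass the test for level. Its level was 77.7, 86.0 and 229.8 CPM in Control and 38.6, 70.8 and 170 in Eed-cKO, with 5 of 9 Eed-cKO embryos below the lowest Control embryo and the other 4 within the Control range. The log2 difference was −0.17 ± 0.31 (edgeR adjusted p = 0.730), and 0.16 (adjusted p = 0.726) without Control embryo 5, the embryo with the highest level.

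**Figure D1:**
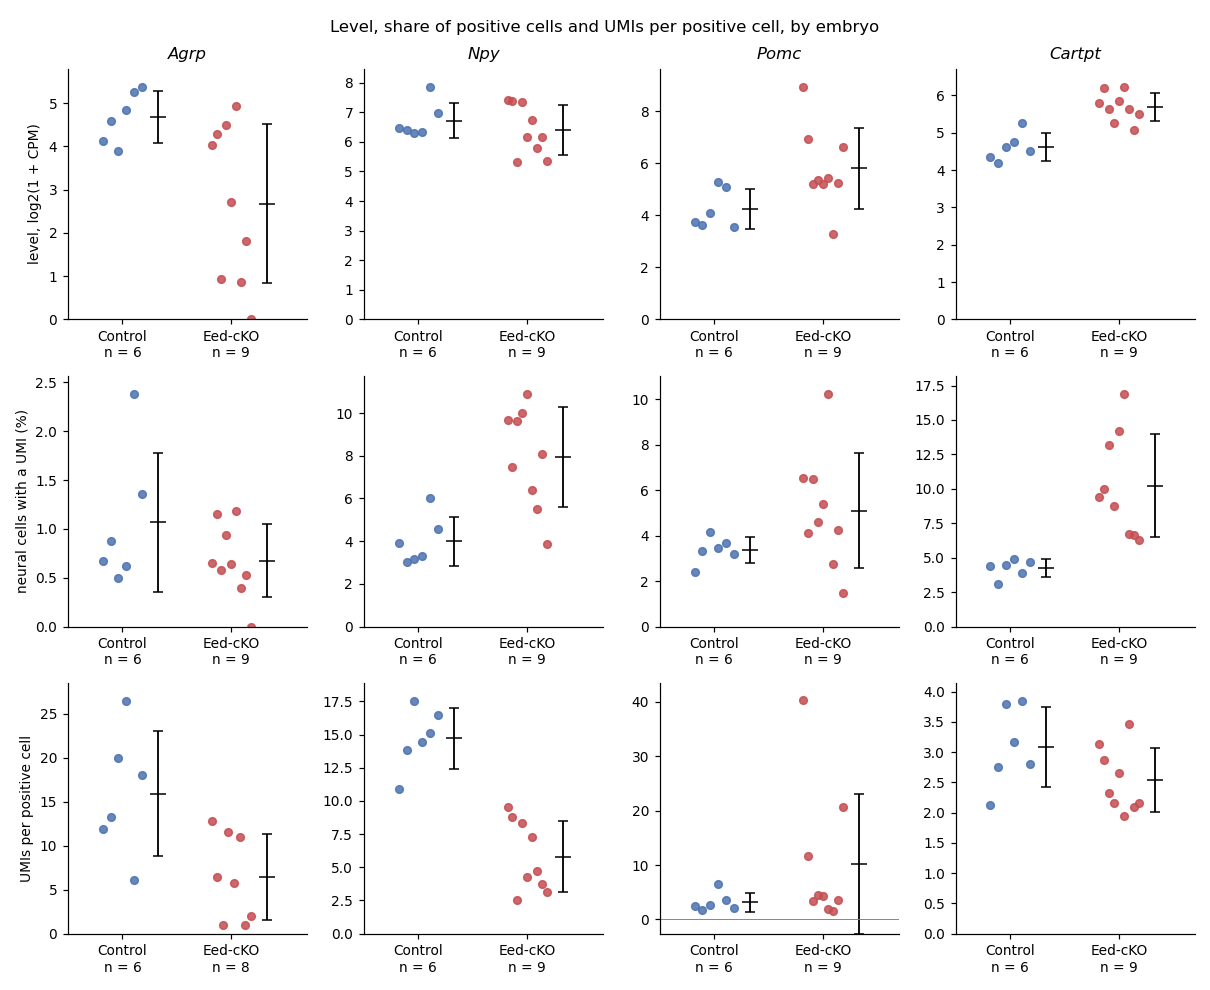
Each point is an embryo, and the bar beside each group is the mean ± SD. The upper panels plot the level as log2(1 + CPM), the middle panels the percentage of neural cells with at least 1 UMI and the lower panels the mean UMIs per positive cell. For *Npy* the Eed-cKO embryos lie mostly above Control in share and all below Control in UMIs per positive cell, while the levels overlap.

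A level joins how many cells hold a gene and how many UMIs each of them holds, and for *Npy* these moved in opposite directions. Cells with at least 1 *Npy* UMI, called positive, made up 3.02, 3.60 and 6.01% (lowest, median and highest) of neural cells in Control and 3.88, 8.08 and 10.9% in Eed-cKO. Shares in 7 of 9 Eed-cKO embryos were above all of Control. The mean was 3.99 ± 1.14% against 7.95 ± 2.34% (exact permutation p = 0.0038, adjusted p = 0.0671 over all 12512 genes). The adjusted value missed the threshold of 0.05, which 2.6% of all genes passed as higher and 1.5% as lower. Without the largest library it was 0.0345.

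The UMIs in each *Npy* cell were fewer in Eed-cKO. The mean per positive cell was 10.9, 14.8 and 17.5 in Control and 2.53, 4.71 and 9.51 in Eed-cKO, so all 9 Eed-cKO embryos lay below the lowest Control embryo. The log2 difference was −1.47 (exact permutation p = 0.000999, adjusted p = 0.187 over 12183 genes). No gene of the 12183 passed this adjusted exact permutation test in either direction (0% higher and 0% lower), while 1754 had an unadjusted p below 0.05. The smallest p that 6 and 9 embryos allow is 0.0001998. It cannot pass an adjustment over this many genes unless many share it, and only 18 did. The lack of calls thus does not show that no gene differed. Without the largest library 8 genes passed as higher and 93 as lower, and the adjusted p of *Npy* was 0.0627.

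*Cartpt* cells were more frequent in every Eed-cKO embryo than in any Control embryo, with an adjusted p just above the threshold, while the UMIs per cell did not differ detectably. The share was 3.12, 4.41 and 4.89% in Control and 6.31, 9.44 and 16.9% in Eed-cKO, with no overlap between the genotypes (means 4.23 ± 0.642% and 10.2 ± 3.75%, exact permutation p = 0.0022, adjusted p = 0.0511). The UMIs per positive cell were 2.13, 2.99 and 3.84 in Control and 1.94, 2.32 and 3.47 in Eed-cKO (log2 difference −0.28, exact permutation p = 0.105, adjusted p = 0.406). The adjusted p of the share passed at 0.0314 with the glial cells described below left out and 0.0421 without the largest library. With cells thinned to 2000 UMIs it passed at 0.0185, a setting that left out the 1240 Control and 1019 Eed-cKO cells below that depth. It missed at 0.0624 with all deposited cells kept, 0.0799 at 2 or more UMIs and 0.479 at 5 or more (0.635% against 1.05%), and in 10 of 15 fits that left out an embryo (0.0342 to 0.119 over the 15).

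*Agrp* showed the reverse division, with no detectable difference in share and fewer UMIs per cell. The share was 0.4926, 0.772 and 2.38% in Control and 0, 0.640 and 1.19% in Eed-cKO, ranges that overlap (exact permutation p = 0.189, adjusted p = 0.507). The UMIs per positive cell were 6.16, 15.6 and 26.4 in Control and 1, 6.11 and 12.8 in the 8 Eed-cKO embryos with a positive cell, 4 of which lay below all Control embryos (log2 difference −1.74, unadjusted exact permutation p = 0.0273). Since embryo 9 gave no value, *Agrp* was outside the test over all genes for this measure, and the p was 0.0528 without Control embryo 4. Eed-cKO embryos 3 and 7 held 5 and 2 *Agrp* cells with 1 UMI in each.

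For *Pomc* neither part passed its test. The share was 2.39, 3.39 and 4.14% in Control and 1.46, 4.58 and 10.2% in Eed-cKO (exact permutation p = 0.124, adjusted p = 0.427), with 6 of 9 Eed-cKO embryos above and 1 below all of Control. The UMIs per positive cell were 1.74, 2.63 and 6.54 in Control and 1.5, 4.38 and 40.3 in Eed-cKO (log2 difference 0.99, adjusted exact permutation p = 0.480).

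The log2 differences of share and of UMIs per positive cell add up to that of the level, once the smaller number of UMIs per Eed-cKO cell is added (0.22 on the log2 scale). For *Npy* a share difference of 0.97 and a difference per positive cell of −1.47 gave a level difference of −0.28 as the mean over embryos. For *Cartpt* 1.21 and −0.28 gave 1.15. For *Pomc* 0.44 and 0.99 gave 1.65. For *Agrp*, over the 8 Eed-cKO embryos with a positive cell, −0.36 and −1.74 gave −1.97, with 0.14 for the UMIs per cell. Thus the *Cartpt* difference lay almost wholly in the share, that of *Agrp* mostly in the UMIs per positive cell, and those of *Npy* offset each other. This divides the UMIs that were detected. Where most positive cells held a single UMI, as for *Cartpt* and *Pomc* below, it does not separate more expressing cells from more RNA per cell.

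Raising the number of UMIs asked of a positive cell showed the same for *Npy*. Control held 284 cells with at least 1 *Npy* UMI, 177 with 2, 128 with 5, 92 with 10, 54 with 20 and 25 with 50. Eed-cKO held 540, 327, 152, 75, 32 and 8. Eed-cKO cells were therefore more numerous at low counts and fewer at high counts. Without the largest library, 57, 37 and 21 Control cells of 5685 held at least 10, 20 and 50, so that the Eed-cKO cells were then the more numerous at 10 as well. Cells with 10 or more UMIs held 88.6% of all *Npy* UMIs in Control and 64.5% in Eed-cKO. The mean share at 5 or more UMIs was 1.76% in Control and 2.21% in Eed-cKO (exact permutation p = 0.378).

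*Agrp* cells numbered 80 in Control and 47 in Eed-cKO at 1 UMI, 30 and 12 at 10, and 5 and 0 at 50. Of the 80 Control cells 33 came from the largest library. Without it Control held 47 *Agrp* cells at 1 UMI, as many as Eed-cKO (mean shares 0.859% and 0.675%, exact permutation p = 0.350), and 22 at 10. *Cartpt* cells were mostly weak in both genotypes: 57.3% of positive cells in Control and 55.0% in Eed-cKO held a single UMI, and 11 and 20 cells held 10 or more. Of *Pomc* cells, 73.7% and 71.9% held a single UMI, yet the 27 Eed-cKO cells with 10 or more held 86.1% of the *Pomc* UMIs of that genotype. Here the *Pomc* level was thus set by few cells and the *Cartpt* level by many. At 5 or more UMIs no gene of 12512 passed the adjusted exact permutation test, with 1591 at an unadjusted p below 0.05. Only 17 genes reached the smallest p that the test allows, so this lack of calls does not show that no gene differed.

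**Figure D2:**
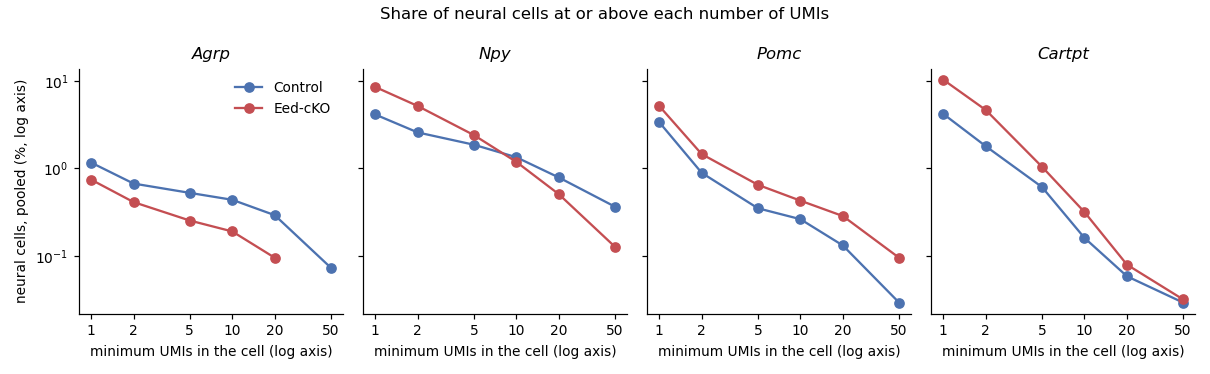
The percentage of all neural cells of a genotype, pooled over embryos, that held at least the number of UMIs on the horizontal axis. Both axes are logarithmic, and no Eed-cKO cell held 50 *Agrp* UMIs, so that point is absent. The *Npy* curves cross between 5 and 10 UMIs.

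Single UMIs can come from RNA set free in the cell suspension, so the shares were set beside those in cells that should not express the genes. Endothelial cells, taken as cells with at least 5 of 8 endothelial markers, numbered 132 in Control and 116 in Eed-cKO, with medians of 4997 and 5118 UMIs. A Hox UMI was found in 0% of these cells in Control and 14.7% in Eed-cKO. *Agrp* was found in 0 of 132 and 0 of 116, which allows a share of up to 2.27% and 2.59%. *Npy* was found in 4.55% and 3.45%, *Pomc* in 5.30% and 6.03% and *Cartpt* in 2.27% and 3.45% (95% exact binomial intervals 1.69 to 9.63% and 0.947 to 8.59% for *Npy*). The *Pomc* shares at 1 UMI in both genotypes, and the *Npy* share at 1 UMI in Control, were thus no higher than in endothelial cells, and at this threshold they are not told from background. The mean *Agrp* shares, 1.07% and 0.675%, lay below the limits given above. The mean *Cartpt* share in Control, 4.23%, lay within its endothelial interval (0.471 to 6.50%). At 1 UMI these shares are not told from background either. Of the 284 Control *Npy* cells, however, 177 held 2 or more UMIs and 92 held 10 or more. At 2 or more UMIs *Npy* was found in 0.758% and 2.59% of endothelial cells, against 2.47 ± 0.837% and 4.87 ± 1.36% of neural cells (exact permutation p = 0.0034 between genotypes, adjusted p = 0.112). Cells of *Cartpt* with 2 or more UMIs were absent from both sets of endothelial cells and made up 1.83 ± 0.492% and 4.73 ± 1.69% of neural cells (p = 0.0014, exact permutation, adjusted p = 0.0799). For *Pomc*, neural cells at 2 or more UMIs made up 0.881 ± 0.335% and 1.49 ± 0.740%, against 0% and 2.59% of endothelial cells. Intervals and limits cover counting error only.

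The added *Npy* cells of Eed-cKO lay largely among cells with glial markers. Neural cells with at least 3 markers of a list of astrocyte, oligodendrocyte precursor, tanycyte, ependymal, cycling or pituitary genes are called glial-gate cells here, and they numbered 605 in Control and 1042 in Eed-cKO. The question of *Npy* within them was put after the data had been seen. *Npy* was found in 0, 2.26 and 4.79% (lowest, median and highest embryo) of these cells in Control and in 6.45, 21.7 and 30% in Eed-cKO. The genotypes did not overlap, with all 9 Eed-cKO embryos above the highest Control embryo (means 2.05 ± 1.84% and 20.2 ± 6.91%, exact permutation p = 0.0003996, adjusted p = 0.0413 over 12512 genes, of which 0.839% passed as higher). Pooled over embryos, there were 15 positive cells of 605 in Control and 234 of 1042 in Eed-cKO (95% exact binomial intervals 1.39 to 4.06% and 19.96 to 25.1%).

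Outside the glial gate the share of *Npy* cells differed much less between the genotypes. There *Npy* was found in 3.17, 3.84 and 6.13% of cells in Control and 3.43, 5.33 and 9.01% in Eed-cKO (exact permutation p = 0.148, adjusted p = 0.475). The difference in share between the genotypes was larger inside the gate than outside by 16.9 percentage points (exact permutation p = 0.0003996, adjusted p = 0.049998). The UMIs per positive cell outside the gate, pooled over embryos, were 15.1 in Control and 7.06 in Eed-cKO, a difference that was not tested. With the glial-gate cells left out, the *Npy* level differed by −0.64 on the log2 scale (edgeR adjusted p = 0.182). The level of *Npy* within the gate was higher in Eed-cKO by 2.60 ± 0.52 on the log2 scale (edgeR adjusted p = 0.00219 over 13722 genes, of which 4.61% passed as higher), and it ranged from 2.36 to 3.39 when each embryo was left out in turn.

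The adjusted p of the share in the glial gate was close to the threshold and was lost in 14 of 15 fits that left out an embryo, with differences of 16.96 to 19.9 percentage points. Leaving out an embryo raises the smallest p that the exact permutation test allows from 0.0001998 to 0.000333 or 0.0004995. These losses alone therefore do not show that the result rests on an embryo, and the same holds for the fits on the *Cartpt* share above. Asking for 2 UMIs gave 1.05% against 12.3% (adjusted p = 0.106), thinning to 2000 UMIs 1.82% against 14.3% (adjusted p = 0.0778), and keeping only glial-gate cells with fewer than 3 neuron markers 1.11% against 19.1% (adjusted p = 0.0532), all by the exact permutation test. At least 3 neuron markers were held by 33.6% of glial-gate cells in Control and 36.7% in Eed-cKO.

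Among the lists, *Npy* was most frequent with ependymal, tanycyte and astrocyte markers, which overlap in the cells they take. In Eed-cKO, 33.8% of cells past the ependymal list, 29.9% past the tanycyte list (153 of 511) and 26.8% past the astrocyte list (218 of 812) were positive, against 7.25, 0.909 and 2.69% in Control. Cells past the list of oligodendrocyte precursors were positive in 15.4% in Eed-cKO and 0 of 101 in Control. Tanycytes line the third ventricle, contact the arcuate nucleus and are defined here by *Rax*, *Crym*, *Col23a1*, *Lhx2*, *Nes* and *Vim*. *Agrp* did not share this pattern: it was found in 0.992% of glial-gate cells in Control and 0.672% in Eed-cKO. There were 6.75 *Npy* UMIs for each *Agrp* UMI outside the gate in Eed-cKO and 49.1 inside it, against 4.28 and 5.82 in Control. A part of free RNA or of joined cells in these counts was not tested beyond these values.

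**Figure D3:**
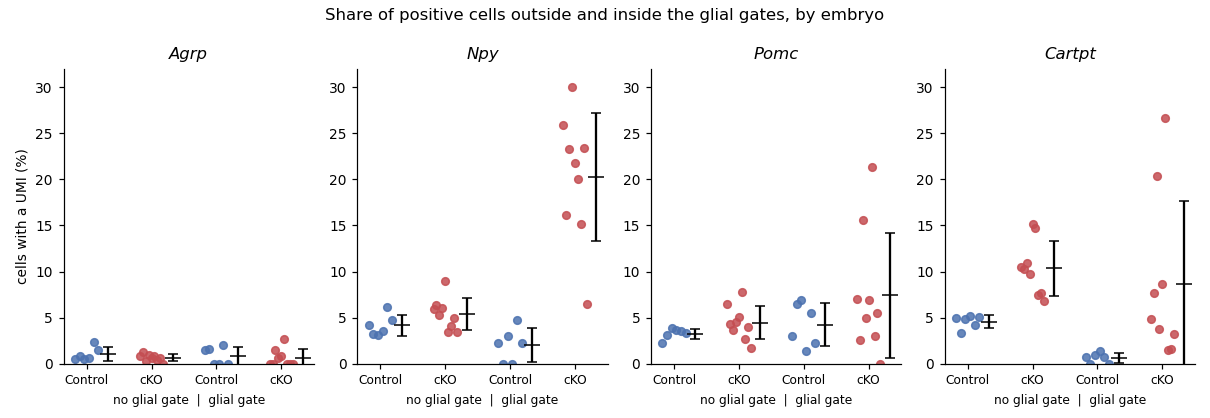
Each point is an embryo and gives the percentage of its cells with at least 1 UMI of the gene, among neural cells past no glial gate and past a glial gate (at least 3 markers of a glial, cycling or pituitary list). Bars are mean ± SD (n = 6 Control, n = 9 Eed-cKO, written cKO). *Npy* in the gate is at 6.45 to 30% in Eed-cKO and 0 to 4.79% in Control.

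*Cartpt* was also higher in level in the glial gate of Eed-cKO, while its share there did not pass the test. It was found in 0, 0.716 and 1.35% of glial-gate cells in Control and 1.52, 4.90 and 26.7% in Eed-cKO, where all 9 embryos lay above Control (exact permutation p = 0.0274, adjusted p = 0.370) and embryos 3 and 6 stood highest, at 20.4% and 26.7%. Its level there was higher by 3.98 ± 0.64 (edgeR adjusted p = 0.00022). Control held only 7 *Cartpt* UMIs in the gate, in 4 of 605 cells, so this difference rests on a Control level near the floor and its size is uncertain. Outside the gate *Cartpt* was also higher, at 4.58 ± 0.707% against 10.4 ± 2.98% (exact permutation p = 0.000599, adjusted p = 0.0314), so its rise was not limited to glial-gate cells. *Pomc* in the gate was higher by 4.08 ± 1.22 (edgeR adjusted p = 0.0405), but by 0.50 (adjusted p = 0.652) without Eed-cKO embryo 1. *Agrp* in the gate differed by −0.69 ± 0.88 (edgeR adjusted p = 0.764).

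Most *Agrp* cells also held *Npy* in both genotypes. Of 80 *Agrp* cells in Control 51 held *Npy*, and of 47 in Eed-cKO 29. The mean share per embryo was 61.6 ± 11.9% and 51.9 ± 38.7% (exact permutation p = 0.560), and the *Npy* share in *Agrp* cells exceeded that in the other cells in 6 of 6 Control embryos, by 58.3 percentage points, and in 6 of 8 Eed-cKO embryos, by 43.8. At 5 or more *Agrp* UMIs, 33 of 36 cells in Control and 16 of 16 in Eed-cKO held *Npy*.

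*Npy* cells without *Agrp* were more frequent in Eed-cKO. They made up 2.43, 3.20 and 4.51% of neural cells in Control and 3.88, 7.95 and 10.5% in Eed-cKO, with 8 of 9 embryos above Control (exact permutation p = 0.0018, adjusted p = 0.00719 over 4 measures of this division). Only 51 of 284 *Npy* cells in Control and 29 of 540 in Eed-cKO held *Agrp*, so this measure nearly repeats the share of all *Npy* cells. That share missed the threshold when adjusted over 12512 genes (adjusted exact permutation p = 0.0671), a much larger family than these 4 measures. *Npy* UMIs per *Agrp* cell were 14.4, 28.0 and 44.1 in Control and 0, 12.0 and 31.6 in 8 Eed-cKO embryos (exact permutation p = 0.0456, adjusted p = 0.0456). In *Npy* cells without *Agrp* they were 4.27, 8.10 and 16.3 in Control and 2.14, 3.90 and 8.97 in Eed-cKO (p = 0.0134, exact permutation, adjusted p = 0.0268). The part of all *Npy* UMIs found in *Agrp* cells was 49.5 ± 21.3% in Control and 19.4 ± 26.2% in Eed-cKO (exact permutation p = 0.0440, adjusted p = 0.0456), although it was still 76.1% in Eed-cKO embryo 6.

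Among the 6 pairs of the 4 genes, those of *Pomc* with *Npy* and with *Cartpt* were found together more often in Eed-cKO. In cells without *Pomc*, *Npy* and *Cartpt* were each also more frequent in Eed-cKO. *Npy* was held by 10 of 232 *Pomc* cells in Control and 55 of 327 in Eed-cKO (means 3.66 ± 3.77% and 14.6 ± 6.999%, exact permutation p = 0.0064, adjusted p = 0.0384 over 6 pairs). *Cartpt* was held by 11 of 232 and 64 of 327 (means 4.52 ± 1.68% and 16.3 ± 10.8%, exact permutation p = 0.0162, adjusted p = 0.0486). In cells without *Pomc*, *Npy* was held by 4.00% and 7.53%, and *Cartpt* by 4.22% and 9.73%. Within Eed-cKO the excess in *Pomc* cells over these cells, 7.08 and 6.58 percentage points, was found in 8 of 9 embryos for each and did not pass the test (adjusted exact sign-flip p = 0.0563 for both). Both calls were lost when 2 UMIs were asked for, at 0% against 5.94% and 2.22% against 9.62% (adjusted exact permutation p = 0.145 and 0.285), and when cells were thinned, and in 12 and 13 of 15 fits that left out an embryo. Most *Pomc* cells held a single UMI. *Agrp* with *Pomc*, *Agrp* with *Cartpt* and *Npy* with *Cartpt* did not pass the test (adjusted exact permutation p = 0.374, 0.316 and 0.374). Cells with any of the 4 genes made up 11.5% of neural cells in Control and 21.2% in Eed-cKO, and 1 and 3 cells held all 4.

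The transmitter class of *Npy* cells differed between the genotypes. *Slc32a1* encodes the vesicular transporter of GABA and *Slc17a6* that of glutamate, and a cell was placed by which of them it held. *Npy* cells with *Slc32a1* only made up 27.0, 38.5 and 48.4% in Control and 4.71, 9.46 and 17.9% in Eed-cKO, with no overlap (means 36.9 ± 8.16% and 10.4 ± 4.44%, exact permutation p = 0.0001998, the smallest that the 5005 splits can give, adjusted p = 0.0032 over 16 classes). In the other neural cells this class made up 21.1% and 10.6%, and the fall in *Npy* cells exceeded that in the other cells by 15.9 percentage points (p = 0.000599, exact permutation, adjusted p = 0.00959). With the glial-gate cells left out the class still differed, at 37.01% and 16.5% (adjusted exact permutation p = 0.00639), but the excess over the other cells was 9.59 percentage points and missed the threshold (adjusted p = 0.251). It was 22.1 points at 5 or more *Npy* UMIs (adjusted p = 0.0533). *Npy* cells with neither transporter rose from 25.8 ± 7.93% to 43.0 ± 11.6% (exact permutation p = 0.00999, adjusted p = 0.0341), but made up 24.7% and 24.01% with the glial-gate cells left out.

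The *Slc32a1*-only class of *Agrp* cells was lower in Eed-cKO when single UMIs were counted. It held 14.3, 50 and 80% of them in Control and 0, 10 and 41.7% in Eed-cKO (exact permutation p = 0.0107, adjusted p = 0.0341). These ranges overlap, and the fall beyond that of the other cells, 25.3 percentage points, did not pass the test (adjusted exact permutation p = 0.163). The difference of −36.2 percentage points between the genotypes was −36.4 with the glial-gate cells left out (adjusted p = 0.0506), −17.01 at 2 or more *Agrp* UMIs (adjusted p = 0.552) and −4.50 at 5 or more (adjusted p = 0.940), all by the exact permutation test, and the call was lost in each.

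*Cartpt* cells changed most in the class with both transporters. It made up 0, 3.19 and 8.06% of them in Control and 7.69, 21.1 and 39.5% in Eed-cKO (means 3.13 ± 3.08% and 21.7 ± 8.54%, exact permutation p = 0.000599, adjusted p = 0.0048). In cells without *Cartpt* it made up 4.33% and 16.1%, and the rise beyond these cells, 6.79 percentage points, did not pass the test (adjusted exact permutation p = 0.163). *Cartpt* cells with *Slc32a1* only fell from 18.6 ± 4.03% to 10.2 ± 4.36% (exact permutation p = 0.0036, adjusted p = 0.0192, and 0.0506 with the glial-gate cells left out). The other cells fell from 21.8% to 10.6%, and the difference between these falls, 2.80 percentage points, did not pass the test (adjusted exact permutation p = 0.492). No class of *Pomc* cells passed, the lowest being the class with both (5.85 ± 4.71% and 13.8 ± 8.14%, exact permutation p = 0.0496, adjusted p = 0.113).

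**Figure D4:**
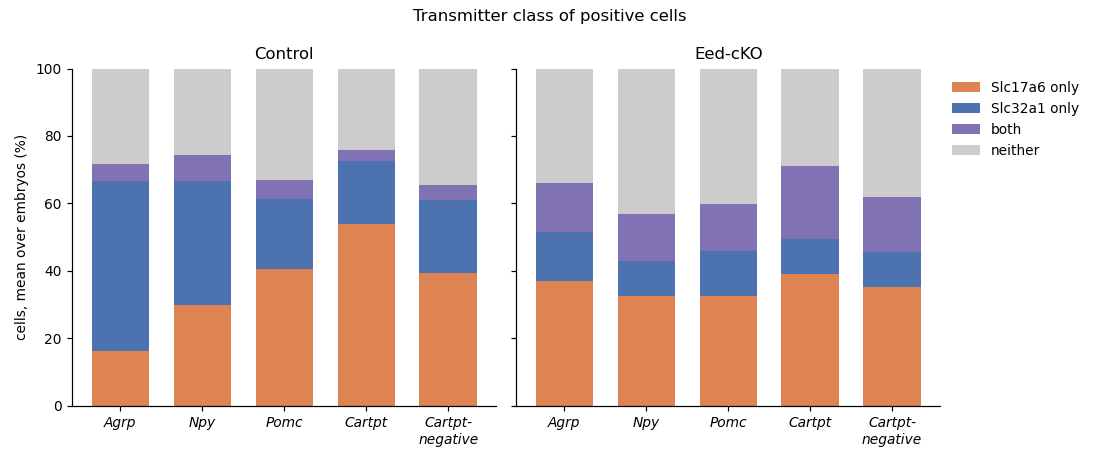
Stacked bars give the mean percentage over embryos of positive cells of each gene, and of cells without *Cartpt*, that held *Slc17a6* only, *Slc32a1* only, both or neither. The *Slc32a1*-only part of *Npy* cells is 36.9% in Control and 10.4% in Eed-cKO.

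Hox genes pattern the hindbrain and spinal cord and are silent in the normal hypothalamus, and 0.0877% of neural cells held a UMI of the 34 Hox genes in Control, against 45.2% in Eed-cKO. In Control no positive cell of any of the 4 genes held a Hox UMI, which allows a share of up to 3.75% for the 80 *Agrp* cells and 1.06% for the 284 *Npy* cells. Within Eed-cKO embryos, *Cartpt* cells held 2.33, 2.504 and 3.91 Hox UMIs per 10000 UMIs (lowest, median and highest embryo) and the other neural cells 4.08, 5.38 and 6.10. *Cartpt* cells were lower in 9 of 9 embryos (mean difference −2.39, exact sign-flip p = 0.0039, adjusted p = 0.0178 over 12225 genes). *Pomc* cells held 0, 2.96 and 4.54, and the other cells 3.99, 5.16 and 5.92, also lower in 9 of 9 embryos (mean difference −2.43, exact sign-flip p = 0.0039, adjusted p = 0.0178).

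A lower Hox load was common, since positive cells of 39.9% of all genes passed as lower by the same test and those of 20.7% were lower in all 9 embryos. The median difference over all genes was −0.79, and 1.66% of genes had a lower value than *Pomc* and 1.77% a lower value than *Cartpt*. Positive cells were also deeper, with medians outside the glial gate of 5687 UMIs against 4187 for *Cartpt* and 5628 against 4272 for *Pomc*. With cells thinned to 2000 UMIs, the mean difference was −2.41 for *Cartpt* and −3.01 for *Pomc*. The exact sign-flip p, adjusted over the genes described here only, was 0.0078 for both. Any other part of depth in the difference was not tested. *Agrp* cells held fewer Hox UMIs than the other cells in 6 of 8 embryos (2.83 ± 2.61 against 4.96, exact sign-flip p = 0.0781).

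The Hox load of *Npy* cells did not differ detectably from that of the other cells (4.71 ± 1.10 against 5.03, exact sign-flip p = 0.477), and the glial gate divided them. Outside the gate *Npy* cells held 3.26 ± 1.84 against 5.08 and were lower in 8 of 9 embryos (exact sign-flip p = 0.0234). Inside it they held 7.18 ± 2.12 against 4.84 and were higher in 7 of 9 (exact sign-flip p = 0.0430). A Hox UMI was found in 203 of the 234 *Npy* cells in the gate (86.8%) and in 50.2% of the 808 others, higher in 9 of 9 embryos (exact sign-flip p = 0.0039). For *Pomc* the shares in the gate were 76.7% and 56.8%, higher in 7 of 8 embryos (exact sign-flip p = 0.0234). They were 76.5% and 56.6% for *Cartpt*, higher in 5 of 9 (exact sign-flip p = 0.781), and 57.1% and 58.5% for *Agrp*. These p-values inside and outside the gate are unadjusted, and the measure was not run there over all genes. The *Npy* cells of the gate were also deeper, with a median of 5694 UMIs against 4266.

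**Figure D5:**
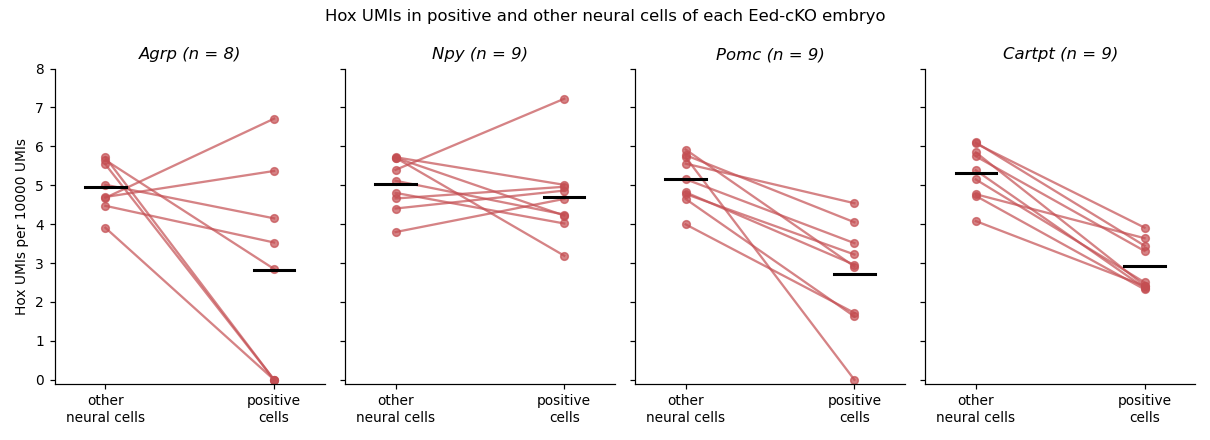
Each line joins the other neural cells and the positive cells of an Eed-cKO embryo, with Hox UMIs per 10000 UMIs on the vertical axis and the mean as a black bar. All 9 lines fall for *Pomc* and for *Cartpt*, and 6 of 8 fall for *Agrp*.

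*Pomc* UMIs in Eed-cKO were concentrated in a few cells that also held pituitary markers. A single cell of Eed-cKO embryo 1 held 1831 *Pomc* UMIs of its 13262, with 3 of the pituitary markers, and this was 90.9% of the *Pomc* UMIs of the embryo. The next cells held 290 and 89 *Pomc* UMIs, in Eed-cKO embryos 2 and 3, with 2 pituitary markers each. The highest Control cell held 83, with no pituitary marker. Neural cells with at least 2 pituitary markers numbered 18 in Control and 125 in Eed-cKO, and those of Eed-cKO held 66.2% of its *Pomc* UMIs. Of the pituitary markers in the table, *Cga* and *Tshb*, which encode subunits of pituitary hormones, had 27 and 1 UMIs in Control neural cells and 832 and 168 in Eed-cKO, and *Pitx1*, a pituitary transcription factor, had 0 and 267. *Tbx19*, which drives *Pomc* in corticotrophs, was at 60 and 88 UMIs, and its level did not pass the test (0.76 ± 0.44 on the log2 scale, edgeR adjusted p = 0.223). Whether tissue of the pituitary was taken with the hypothalamus was not tested.

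Other genes of these circuits were taken from lists, with the edgeR test over all genes, which called 13.7% of all genes higher and 10.9% lower in Eed-cKO, and each count is given beside these shares. Of 4 tested receptors, 2 fell in Eed-cKO and none rose. They were *Npy2r*, the presynaptic NPY receptor of AgRP neurons (−1.32 ± 0.24, adjusted p = 0.000403), and *Npy5r* (−0.78 ± 0.21, adjusted p = 0.00983). *Mc4r*, the melanocortin receptor on which POMC and AgRP products act, was at −0.41 ± 0.30 (adjusted p = 0.349). The list had a median of −0.60 on the log2 scale, against 0.01 over all genes tested.

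Of 10 genes that process or store peptides, 4 fell and none rose in Eed-cKO, against 10.9% and 13.7% of all genes. *Pcsk1*, the convertase that makes the first cuts in POMC, fell by 0.67 ± 0.19 on the log2 scale (edgeR adjusted p = 0.0120), and *Pam*, which amidates α-MSH and NPY, fell by 0.33 ± 0.10 (edgeR adjusted p = 0.0187). The granins *Scg2* (−0.59) and *Vgf* (−0.45) fell too. *Cpe* and *Pcsk2* did not pass the test, and the median of the list was −0.10.

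Of 16 tested regulators of the arcuate and neighbouring hypothalamus, 5 rose and 3 fell, against 13.7% and 10.9% of all genes. The largest rises were *Rax* (1.94 ± 0.31), a tanycyte and progenitor factor, and *Tbx3* (1.33 ± 0.23), which maintains the identity of arcuate POMC and AgRP neurons. *Prdm12*, which is needed for *Pomc* expression, fell by 1.66 ± 0.28, *Dlx1*, a factor of GABAergic neurons, by 1.02 ± 0.09 and *Sox14* by 0.96 ± 0.25, all on the log2 scale. The median of the list was −0.08.

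Of 6 tested genes of insulin, leptin and related signals, 2 rose, against 13.7% of all genes. They were *Socs3* (0.92 ± 0.24) and *Stat3* (0.43 ± 0.09). *Socs3*, the feedback inhibitor of leptin signalling, was at 0.32 (edgeR adjusted p = 0.421) with the glial-gate cells left out. Of 14 other feeding peptides, 4 fell and 1 rose, against 10.9% and 13.7% of all genes. *Pmch* fell by 2.59 ± 0.65 on the log2 scale, *Crh* by 2.13 ± 0.51, *Ghrh* by 1.66 ± 0.52 and *Bdnf* by 1.11 ± 0.12, while *Nmu* rose by 0.99 ± 0.28, and the median of this list was −0.26. Of 5 transmitter genes, 1 fell, *Slc17a8* (−1.04 ± 0.30), against 10.9% of all genes. *Slc32a1* and *Slc17a6* did not pass the test (−0.08 ± 0.09 and −0.06 ± 0.10).

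Markers of other cells moved with these results. Of the astrocyte list 6 of 8 genes rose and 1 fell, of the tanycyte list 6 of 6 rose and of the cycling list 6 of 6, while no gene of 6 on the ependymal list passed. These counts, and those of the lists below, stand beside 13.7% of all genes called higher and 10.9% lower. The summed level of the tanycyte list was 148 to 280 CPM in Control and 455 to 875 in Eed-cKO, and that of the astrocyte list 694 to 1946 and 857 to 2012. Vascular and leptomeningeal lists also rose within the cells kept as neural (3 of 4 pericyte and 3 of 3 leptomeningeal genes tested), at summed levels of at most 95.7 CPM. Their part in the results was not tested beyond the alternatives without such cells. In the cells set aside as non-neural, 345 in Control and 636 in Eed-cKO, *Npy* was found in 1.74% and 12.1%, and a Hox UMI in 0.580% and 31.3%. *Cartpt* was found in 0.870% and 8.33% of them, *Pomc* in 3.77% and 8.65% and *Agrp* in 0% and 0.157%. These differences were not tested.

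The genes whose levels followed each of the 4 most closely over the 6841 Control neural cells are given as a description, since cells of 1 library share their depth. For *Agrp* they were *Npy* (Pearson r = 0.53), *Cited1* (0.43), *Ghr*, the growth hormone receptor (0.32), *Calcr* (0.27) and *Fam150b* (0.25), and over Eed-cKO cells r with *Npy* was 0.30. *Npy* was followed, after *Agrp*, by *Cited1* (0.33), *Calcr* (0.24), *Sst* (0.19) and *Npy2r* (0.18). For *Pomc* the list was led by *Tbx3* (0.21 in Control, 0.17 in Eed-cKO) and for *Cartpt* by *Pmch* (0.24 and 0.12). Over Eed-cKO cells, a choice made after the data were seen, *Npy* was followed after *Agrp* by *Pla2g7*, *Gdf10*, *Aqp4* and *Sparcl1*, with r of 0.25, 0.25, 0.25 and 0.24 against −0.02, 0.00, −0.01 and −0.00 in Control. *Aqp4*, the water channel of astrocytes, is on the astrocyte list used above.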

How the data were processed

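The deposited file was a single matrix of raw UMI counts, with genes in rows and the cells of all libraries in columns. Per the labels and the study's methods, the authors ran SureCell RNA Single-Cell (STAR 2.5.2b, SAMtools 1.3, mm10 build) on ddSEQ 3′ libraries and had removed cells under 600 UMIs, 1.2 UMIs per gene or 300 genes. From these counts, neural cells were kept by marker lists and summed per embryo, the replicate. Library totals were 576432 to 4513505 UMIs, and embryos held 5041004 to 7329294 neural UMIs in Control and 622010 to 5342961 in Eed-cKO.

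Levels were tested by the quasi-likelihood method of edgeR 4.0.16 under R 4.3.3 (TMM, Benjamini-Hochberg adjustment, threshold 0.05), for genes with at least 15 UMIs, at least 2 in a sample and a median log2-CPM of at least 1.5. Standard errors are those of the log2 fold change. Shares, UMIs per positive cell, pairs and classes were tested by two-sided exact permutation of embryos and Hox loads by exact sign flips, with scipy 1.17.1. DESeq2 1.42.0, limma 3.58.1 (voom with TREAT at 0.18 on libraries), other cell filters, thinning to 2000 UMIs and leaving out each embryo were alternatives. Cells with fewer than 2000 UMIs were left out of the thinned setting. Doublets were not called, and the 6% of cells with most UMIs in each library were left out as an alternative. Named genes were the 4 members, up to 6 called genes per list with the largest fold change, and the 5 genes with the highest Pearson r over Control cells among those with a UMI in at least 20 of them. The 4 genes, the lists and the tests were chosen with earlier results of these data known. RefSeq gave 3 of the 4 promoters. The genes *Npy4r*, *Glp1r*, *Otp*, *Bsx*, *Neurog3*, *Galp*, *Pou1f1*, *Gh* and *Prl* of the lists were not analysed here, and some listed genes are not reported here.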

Additional observations from a re-analysis of the deposited data

Results flagged for a closer look

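In 3 of 32 groups of embryos checked, the value at an end lay far from the rest by Dixon's criterion, and chance gives this in about 1 of 20 groups. The *Npy* level of Control embryo 5 was 229.8 CPM, with the next Control embryo at 124.0. This embryo held the largest library, in which 6.92% of cells were *Npy*-positive against 3.62% in its other libraries. The *Pomc* level of Eed-cKO embryo 1 was 486.7 CPM, with the next at 121.1, and its *Pomc* UMIs per positive cell were 40.3, with the next at 20.7. The cell with 1831 *Pomc* UMIs belonged to this embryo.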

How the results depend on the processing

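The genotypes could not be paired, because no litter, as read from the library names, held both, and the embryo numbers only name embryos. Positive and other cells were compared within embryos for Hox loads and, within a genotype, for pairs of genes. The level of *Agrp* (−1.27 on the log2 scale) lost its call at −1.19 with glial-gate cells left out, −1.25 without cells with 2 pituitary markers, −1.04 without the largest library, −1.23 with library size alone, −1.31 with litters as samples, −1.32 in DESeq2 and −1.81 in limma-voom with TREAT. *Pomc* lost its call at 0.90 without cells with 2 pituitary markers and 1.19 in limma-voom, and *Npy* turned to 0.0361 in limma-voom. Leaving out each embryo in turn gave −1.51 to −1.08 for *Agrp*, −0.32 to 0.16 for *Npy* and 1.27 to 2.57 for *Pomc*. The level of *Cartpt* passed its test in all of these settings, at 0.93 to 1.22, and at 1.01 to 1.27 without each embryo.

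The share of *Cartpt* (6.00 percentage points) passed its test at 5.79 with glial-gate cells left out, 5.97 without the largest library, 5.97 without cells with 2 pituitary markers, 3.45 thinned and 5.75 with libraries as samples, and lay at 5.17 to 6.49 without each embryo. That of *Npy* (3.96) passed at 4.36 without the largest library, and lay at 3.59 to 4.47 without each embryo. With libraries as samples the share differed by 5.75 for *Cartpt*, 4.81 for *Npy* and 1.79 for *Pomc*. The p-values of that setting were not adjusted over genes and treat libraries of an embryo as independent, so they are not counted as passing. UMIs per positive *Agrp* cell (−1.74) missed at −1.01 thinned and −1.44 per 10000 UMIs, and ranged from −1.99 to −1.44 without each embryo. In the glial gate, the *Npy* share (18.2) missed at 11.3 with 2 UMIs, 12.4 thinned and 18.04 with under 3 neuron markers, and ranged from 16.96 to 19.9 without each embryo. There *Agrp* turned to 0.23 and *Pomc* to −0.0466 with under 3 neuron markers, *Agrp* lay at −0.49 to 0.00308 without each embryo, and the *Pomc* level at 0.50 to 4.92.

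*Pomc* with *Npy* (10.96 percentage points) missed at 5.94 with 2 UMIs, 10.96 with 5 and 11.2 thinned, and lay at 9.44 to 12.8 without each embryo. *Pomc* with *Cartpt* (11.8) missed at 10.5 without the 6% of cells with most UMIs, 7.39 with 2 UMIs, 21.2 with 5 and 3.12 thinned, and lay at 9.18 to 13.8. *Agrp* with *Npy* turned to 0.76 without the largest library and 6.84 with 5 UMIs, and *Npy* with *Cartpt* to −1.20 with 2 UMIs. The class with both transporters in *Cartpt* cells (18.6) missed at 25.7 with 5 UMIs and 7.15 thinned. In *Agrp* cells its difference beyond the other cells turned to 8.599 with 2 UMIs and 5.79 with 5. Without each embryo the class lay at 4.70 to 8.16 in *Npy* cells, or −7.59 to −5.38 beyond the other cells, and at 6.15 to 9.73 in *Pomc* cells. The Hox load of *Npy* cells passed at −1.82 with glial-gate cells left out and that of *Agrp* cells at −3.90 thinned, and the latter lay at −2.73 to −1.62 without each embryo. The settings without the largest library, with pituitary or glial markers, or with 5 UMIs, and all on the glial gate, were chosen after seeing the data, apart from the levels and shares with glial-gate cells left out. Other causes were not tested.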

Other observations

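Sex was given for every embryo. The difference between genotypes did not differ detectably between male and female embryos for any of the 4 genes (edgeR interaction, adjusted p = 0.963 to 0.976). With libraries in place of embryos (22 and 26 libraries, permutation test), the share of positive cells differed by 4.81 percentage points for *Npy* and 5.75 for *Cartpt*, at p = 1e-05, the smallest that the resamples can give, by 1.79 for *Pomc* (p = 0.00226) and by −0.18 for *Agrp* (p = 0.329). Libraries of an embryo are not independent, and these p-values were not adjusted over genes.

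Over Eed-cKO neural cells, the genes closest to *Pomc* were *Tbx3*, *Samd3*, *Oacyl*, *Gpx3* and *AW549542* (Pearson r = 0.17, 0.17, 0.16, 0.15 and 0.15), and those closest to *Cartpt* were *Scgn*, *Pmch*, *D930028M14Rik*, *Gng3* and *Nrsn2* (0.16, 0.12, 0.12, 0.11 and 0.11). In Control, *Pomc* was followed after *Tbx3* by *AW549542* (0.17), *Plxdc1* (0.14), *Rnf128* (0.12) and *Six6* (0.11), and *Cartpt* after *Pmch* by *Nkx2-1* (0.13), *Nts* (0.12), *Cck* (0.12) and *Rprm* (0.12). These are descriptions across cells, which are not independent.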
